A study of Mus musculus with 282 samples.

Results

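Alad and Hdhd3 are neighbouring genes on mouse chromosome 4, and their RNA was followed here in the hypothalamus of 99 strains. They were chosen by name in the transcript assembly, which gave 2 of 14079 gene rows and 6 of 51024 transcript rows of the expression table, 4 of them transcripts of Alad and 2 of Hdhd3. All 282 mice were males fed a high fat diet, and each gave 1 whole hypothalamus and 1 unstranded mRNA library. The strains belong to the Hybrid Mouse Diversity Panel, a collection of inbred mice for genetic mapping, and comprise 25 classical inbred strains and 74 recombinant inbred strains. Recombinant inbred strains are made by inbreeding the offspring of a cross, so that each strain is fixed at nearly every locus for the allele of either parent. The 43 BXD strains descend from C57BL/6J and DBA/2J, the 18 AXB and BXA strains from C57BL/6J and A/J, the 6 BXH strains from C57BL/6J and C3H/HeJ, and the 7 CXB strains from related substrains of BALB/cJ and C57BL/6J. Counting 1 pair of near-identical libraries of CXB-6/ByJ once, there were 3 mice in 84 strains, 2 mice in 13 strains and 1 mouse in 2 strains (AXB-12/PgnJ and I/LnJ). No group was untreated, and all mice shared the sex and the diet.

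Alad encodes delta-aminolevulinate dehydratase, the enzyme that joins aminolevulinic acid molecules into porphobilinogen early in the synthesis of haem. Every cell with mitochondria makes haem for its cytochromes, and red cell precursors make it in bulk. The enzyme binds zinc and is a classical target of lead. Inbred mice have long been known to differ in its activity, and DBA/2 mice carry a tandem duplication of Alad that C57BL/6 mice lack. Hdhd3 encodes a member of the haloacid dehalogenase family of hydrolases, many of which are phosphatases, and its substrate is not known with certainty. Copy number was not measured in these libraries, and no genotypes were used.

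In the mm10 assembly of the authors, Hdhd3 (XLOC_025550) spans chr4:62494737-62502276 and Alad (XLOC_025551) spans chr4:62504540-62520642, both on the minus strand. The 2 loci are 2263 bases apart. Pole3, on the other side of Alad, lies 2006 bases from it, and Wdr31, on the other side of Hdhd3, lies 23804 bases from it. The promoters are shown because both genes changed together between strains. They are the RefSeq windows of 300 bases on GRCm38.p6, which has the coordinates of mm10, which end shortly after the start site, in the sequence of C57BL/6J. Capitals mark GC boxes (GGGCGG or CCGCCC), E-boxes (CACGTG) and CCAAT boxes (CCAAT or ATTGG), searched on both strands.
Alad, chr4:62519860-62520159, minus strand: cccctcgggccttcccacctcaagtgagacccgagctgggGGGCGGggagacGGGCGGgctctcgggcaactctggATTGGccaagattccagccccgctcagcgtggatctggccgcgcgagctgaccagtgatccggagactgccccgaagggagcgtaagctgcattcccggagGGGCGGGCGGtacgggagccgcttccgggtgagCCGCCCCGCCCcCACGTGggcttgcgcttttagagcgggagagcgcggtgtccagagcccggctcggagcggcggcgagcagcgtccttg
Hdhd3, chr4:62502151-62502450, minus strand: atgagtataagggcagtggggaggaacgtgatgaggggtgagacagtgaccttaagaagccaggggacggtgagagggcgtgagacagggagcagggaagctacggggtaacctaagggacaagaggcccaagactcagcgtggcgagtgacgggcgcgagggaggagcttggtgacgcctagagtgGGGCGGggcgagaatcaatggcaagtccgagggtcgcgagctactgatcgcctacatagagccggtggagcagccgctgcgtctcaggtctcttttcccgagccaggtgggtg
The Alad window held 6 GC boxes, 4 of them in 2 overlapping pairs, 1 E-box and 1 CCAAT box, and the Hdhd3 window held 1 GC box and no match to the other motifs. A GC box was in 35.7%, an E-box in 7.15% and a CCAAT box in 37.4% of 32851 promoter windows of the same length, and a TATA box (TATAAA), which neither window holds, in 13.6%. The Alad window was 71.3% G and C, more than 92.2% of the windows, and that of Hdhd3 was 61.7%, more than 74.6% of them. RefSeq gives Alad an additional start site upstream, whose window overlaps the printed one.

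Values are FPKM, in which fragments are divided by the length of the transcript and by the size of the library, with a further scaling between mice by the authors. Being per length, they allow levels to be compared between genes. FPKM hold no read counts, so the depth behind a value is unknown and the error given is the spread over mice. Alad was at 28.5 ± 12.2 FPKM (SD over all 282 mice, with the pair of CXB-6/ByJ counted once), from 11.2 to 68.1 with a median of 33.8, and above 80.6% of the 14079 genes. Hdhd3 was at 6.32 ± 3.13 FPKM (SD over the same mice), from 1.21 to 13.8 with a median of 7.55, and above 39.2% of genes. In bulk tissue, fewer cells of a type and less RNA per cell cannot be told apart.

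CXB-6/ByJ replicates 2 and 3 differed by less than the sampling noise and were counted as 1 sample. Their values stood in the same ratio of 0.995 from the 1st to the 99th percentile of genes, and the log2 difference had an SD of 0.0013 over genes, against 0.23 in the next closest pair of mice. Several libraries stood apart from their strain. To see this, genes were taken that differed between the parents of a set by over 1 on the log2 scale, Alad and Hdhd3 excluded, and each mouse was compared with its strain mates where those shared a parental side. A mouse lay opposite to its mates at a median of 5.06% of such genes in BXD and 5.33% in CXB. In CXB-7/ByJ replicate 3 this was 52.5%, at 93 of 177 genes, in BXD-12/TyJ replicate 2 it was 25.3%, in BXD56 replicate 2 it was 22.8% and in CXB-3/ByJ replicate 3 it was 20.2%. The summed FPKM of all genes was 792801 in BXD-12/TyJ replicate 2 and 463433 in CXB-3/ByJ replicate 3, against 327643 to 351684 in the other mice of BXD-12/TyJ, CXB-3/ByJ and CXB-7/ByJ. Of these 4 libraries, 3 carried Alad values unlike those of their strain mates and were named beside the results they touch. A mouse with 2 strain names in its labels was left out of all strains. Of 8 hypothalamus markers, 7 were in the table, and their summed level was between 829 and 9180 FPKM in every mouse. Blood markers summed to 32.4 to 580 FPKM, anterior pituitary markers to 0.589 to 16500 and choroid plexus markers to 7.25 to 2100, so that neighbouring tissue entered some dissections, and its part in the levels of Alad and Hdhd3 was not tested.

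Strain identity accounted for most of the variation of both genes. Alad differed among the 99 strains (F = 26.8, adjusted p = 3.3e-71, limma moderated F test), and so did Hdhd3 (F = 22.8, adjusted p = 1.3e-65). The same test called 74.9% of all genes, so the call itself is common. The size was less so. The strain share of variance, an intraclass correlation, was 0.9 for Alad, rank 156 of 14079 genes, and 0.884 for Hdhd3, rank 198, with a median of 0.221 over genes. Without BXD-12/TyJ replicate 2, CXB-3/ByJ replicate 3 and CXB-7/ByJ replicate 3 the shares were 0.966 and 0.919. The F value of Alad was higher without BXD-12/TyJ replicate 2, at 44.5 over all strains, 51.3 in BXD, 46.9 in AXB and BXA, 53.9 in BXH, 36 in CXB and 27.5 among inbred strains.

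Among the classical inbred strains, Alad fell into 3 tiers, which were read from the ordered strain means. The lowest held C57BL/6J, C57BLKS/J, SM/J and KK/HlJ. In C57BL/6J, the reference strain of the mouse genome, the 3 mice gave 15.6, 17.9 and 15.5 FPKM. C57BLKS/J, a relative of C57BL/6J, gave 13.8, 17.1 and 15.9 FPKM. SM/J gave 14.4, 13.1 and 13.7 FPKM and KK/HlJ 12.3, 13.1 and 13.4 FPKM. Each of the 4 strains overlapped its neighbours in order of the means, and no mouse of theirs reached 20 FPKM.

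The middle tier held PL/J, BUB/BnJ, NZB/BlNJ, RIIIS/J and 129X1/SvJ. PL/J gave 22.2 and 26.6 FPKM in its 2 mice, BUB/BnJ 25.3, 23.4 and 24.7, and NZB/BlNJ 24.2, 24.9 and 24.3. RIIIS/J gave 27.3, 23.6 and 27.1 FPKM and 129X1/SvJ 25.8, 27.8 and 29.6. All 14 of these mice lay above every mouse of the lowest tier and below every mouse of the highest.

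The highest tier held the other 16 strains. Their means ran from 34.2 ± 1.78 FPKM in A/J to 47.1 ± 4.45 in C57L/J (SD, n = 3 each). In ascending order they were A/J, BALB/cJ, CE/J, SWR/J, DBA/2J, C3H/HeJ, I/LnJ, LG/J, NON/LtJ, AKR/J, MA/MyJ, SEA/GnJ, NZW/LacJ, SJL/J, CBA/J and C57L/J. Each overlapped mouse by mouse with its neighbours in this order. C57L/J, which belongs to the C57 family of strains as C57BL/6J does, gave 42.97, 51.81 and 46.49 FPKM, and CBA/J below it 41.98, 36.87 and 44.65. Neighbouring means were separated without overlap of mice at just 2 steps, from C57BL/6J to PL/J (1.5-fold) and from 129X1/SvJ to A/J (1.23-fold).

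Hdhd3 gave the same tiers with the same strains in each. The lowest means were 2.15 ± 0.474 FPKM in SM/J, 2.22 ± 0.287 in C57BL/6J, 2.29 ± 0.476 in KK/HlJ and 3.41 ± 1.15 in C57BLKS/J (SD, n = 3 each). The 3 mice of C57BL/6J gave 1.92, 2.50 and 2.24 FPKM, while those of C57BLKS/J were spread from 2.16 to 4.41. The middle means ran from 5.26 ± 0.558 FPKM in 129X1/SvJ to 6.21 ± 0.374 in NZB/BlNJ (SD, n = 3 each). The highest ran from 7.47 ± 0.343 FPKM in BALB/cJ to 10.4 ± 0.714 in C57L/J (SD, n = 3 each). As with Alad, neighbouring means parted without overlap of mice only below and above the middle tier, by 1.54-fold from C57BLKS/J to 129X1/SvJ and by 1.2-fold from NZB/BlNJ to BALB/cJ. Within the tiers the order differed, as CBA/J was next to the top for Alad at 41.2 FPKM and among the lowest of its tier for Hdhd3 at 7.91. Strain differences among the 25 strains passed for Alad (F = 16.7, adjusted p = 7.8e-33, limma) and for Hdhd3 (F = 16.2, adjusted p = 4.8e-32, limma), in a test that called 47.4% of all genes.

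**Figure D1:**
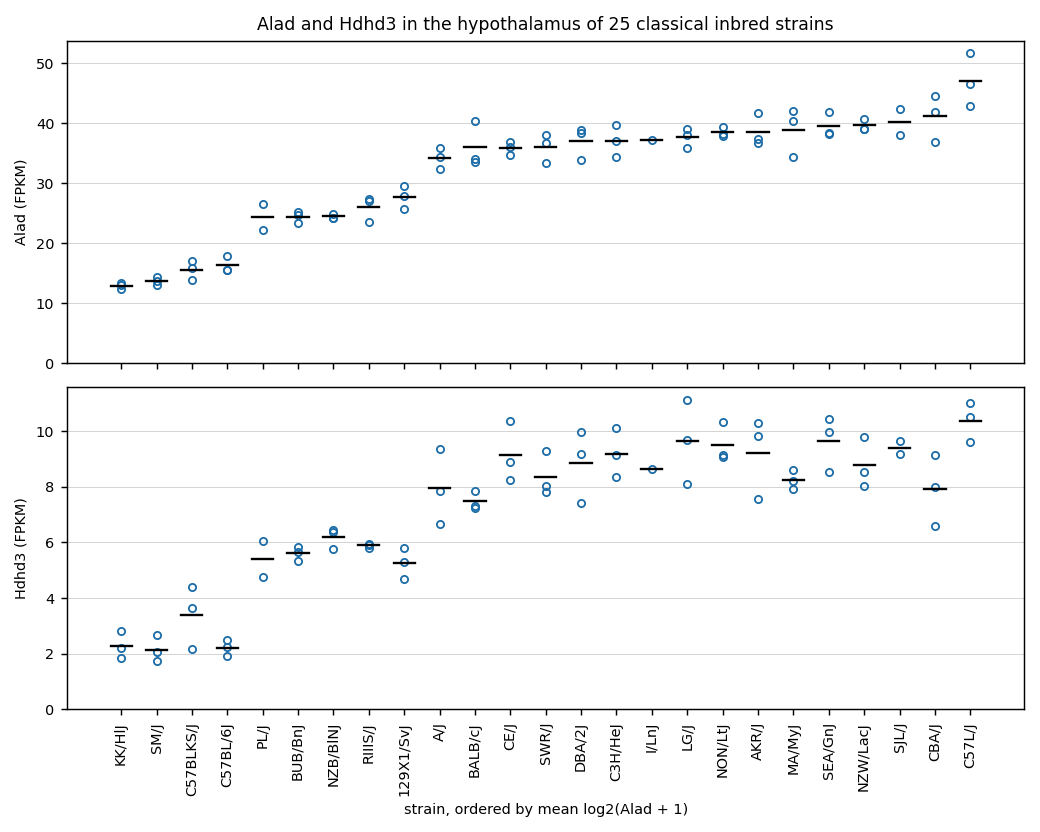
Alad (top) and Hdhd3 (bottom) in FPKM in 25 classical inbred strains ordered by mean log2 Alad. Each circle is 1 mouse and each bar a strain mean; KK/HlJ, SM/J, C57BLKS/J and C57BL/6J form the lowest tier, PL/J to 129X1/SvJ the middle one with Alad means of 24.4 to 27.7, and A/J to C57L/J the highest.

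Tests against C57BL/6J covered 24 strains, all of which share its 3 mice. Alad was higher in 20 and lower in 0 of them, and Hdhd3 higher in 21 and lower in 0 (limma, adjusted p under 0.05 over all genes). Over the 24 contrasts together, 2.76% of the tests of all genes were called higher, from 1.04% to 4.28% per strain. At an unadjusted p under 0.05 neither gene was lower in any of them in this fit. The Alad difference, on the log2(FPKM + 1) scale, ran from 0.56 ± 0.18 (SE) in BUB/BnJ, with adjusted p = 0.031 from limma, to 1.47 ± 0.18 in C57L/J, with adjusted p = 5.1e-12. That of Hdhd3 ran from 0.96 ± 0.2 in 129X1/SvJ, with adjusted p = 0.00015 from limma, to 1.82 ± 0.2 in C57L/J, with adjusted p = 8.5e-14. C57BLKS/J, KK/HlJ and SM/J passed for neither gene. Their Alad differences were -0.06 ± 0.18, -0.31 ± 0.18 and -0.23 ± 0.18 (SE), and their Hdhd3 differences 0.42 ± 0.2, 0.02 ± 0.2 and -0.04 ± 0.2. PL/J, with 2 mice, passed for Hdhd3 at 0.99 ± 0.22 and not for Alad at 0.55 ± 0.2 (adjusted p = 0.13, limma). In a fit without BXD-12/TyJ replicate 2, whose spread enters every test of Alad, PL/J passed for Alad too (adjusted p = 0.017, limma) and the count was 21 of 24. There Alad was also lower in KK/HlJ at an unadjusted p under 0.05, by -0.31 ± 0.14, which did not pass (adjusted p = 0.17, limma). Leaving out C57BL/6J replicate 1 or replicate 3 ended the Alad calls of BUB/BnJ and NZB/BlNJ, so that 18 of 24 remained, and a blood marker covariate that of NZB/BlNJ.

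Tests against DBA/2J placed the middle tier less firmly, and 1 library decided several of them. Of 23 strains other than C57BL/6J, Alad was lower in BUB/BnJ, C57BLKS/J, KK/HlJ, NZB/BlNJ and SM/J, and Hdhd3 in 129X1/SvJ, C57BLKS/J, KK/HlJ and SM/J, while neither was higher in any, and 3.25% of the tests of all genes were called lower. For BUB/BnJ the Alad difference was -0.58 ± 0.18 (adjusted p = 0.025, limma) and for NZB/BlNJ -0.58 ± 0.18 (adjusted p = 0.025, limma). For RIIIS/J it was -0.5 ± 0.18 (adjusted p = 0.064, limma), for PL/J -0.59 ± 0.2 (adjusted p = 0.1) and for 129X1/SvJ -0.4 ± 0.18 (adjusted p = 0.16). The 3 mice of C57L/J lay above the 3 of DBA/2J for Alad, with a difference of 0.34 ± 0.18 that did not pass (adjusted p = 0.31, limma). Without BXD-12/TyJ replicate 2, Alad was lower in 8 of 23 strains, namely the 5 named for Alad above, RIIIS/J (adjusted p = 0.0079, limma), PL/J (adjusted p = 0.0095) and 129X1/SvJ (adjusted p = 0.04). For Hdhd3 the same fit added BUB/BnJ (adjusted p = 0.045, limma), while NZB/BlNJ, PL/J and RIIIS/J still missed. These contrasts were added after the strain order had been seen.

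The 4 other parents of the recombinant sets lay in the highest tier for both genes. DBA/2J gave 33.8, 39.0 and 38.4 FPKM of Alad, A/J 35.9, 34.4 and 32.3, C3H/HeJ 34.5, 37.1 and 39.8, and BALB/cJ 33.6, 34.0 and 40.3. No mouse of any of them overlapped C57BL/6J. The ratio of mean FPKM to C57BL/6J was 2.27 for DBA/2J, 2.1 for A/J, 2.28 for C3H/HeJ and 2.21 for BALB/cJ. On the log2(FPKM + 1) scale the Alad difference was 1.14 ± 0.18 for DBA/2J (adjusted p = 6e-08), 1.03 ± 0.18 for A/J (adjusted p = 1.7e-06), 1.14 ± 0.18 for C3H/HeJ (adjusted p = 6.4e-08) and 1.09 ± 0.18 for BALB/cJ (adjusted p = 2.6e-07), all by limma. The contrasts called 6.85%, 7.98%, 7.56% and 6.75% of all genes, in this order, and 3.29%, 3.06%, 3.87% and 2.85% as higher.

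Hdhd3 gave 7.43, 9.17 and 9.99 FPKM in DBA/2J, 9.36, 6.65 and 7.86 in A/J, 10.1, 8.34 and 9.14 in C3H/HeJ, and 7.87, 7.25 and 7.30 in BALB/cJ. Again no mouse overlapped C57BL/6J. The ratio of means was 3.99 for DBA/2J, 3.58 for A/J, 4.14 for C3H/HeJ and 3.37 for BALB/cJ, in each case above that of Alad. The log2(FPKM + 1) difference was 1.61 ± 0.2 for DBA/2J (adjusted p = 1.2e-11), 1.47 ± 0.2 for A/J (adjusted p = 7.5e-10), 1.66 ± 0.2 for C3H/HeJ (adjusted p = 2.7e-12) and 1.4 ± 0.2 for BALB/cJ (adjusted p = 5.3e-09), all by limma. Alad RNA was thus 7.35 times that of Hdhd3 in C57BL/6J by mean FPKM and 4.18 times in DBA/2J, a difference between the genes that was not tested. All these ratios of means share the C57BL/6J mice, whose 7.35 was the highest of all strains. In the other strains of the lowest tier Alad was 4.59 (C57BLKS/J), 5.65 (KK/HlJ) and 6.41 (SM/J) times Hdhd3. Blood markers summed to more in the 3 C3H/HeJ mice, at 316 to 371 FPKM against 128 to 134 in C57BL/6J. Their sum in DBA/2J, at 98 to 145, overlapped C57BL/6J. Of 5 blood markers in the table, 2 were called higher and 1 lower in C3H/HeJ (limma), where 7.56% of all genes were called. The markers thus did not move together. In a fit with the blood markers as a covariate both genes stayed called in C3H/HeJ. Anterior pituitary markers, 6 of 7 in the table, summed to 44.9 to 320 FPKM in C3H/HeJ and 64.1 to 178 in A/J, against 3.2 to 5.59 in C57BL/6J, and to 5.43 to 14.3 in DBA/2J. Thalamus markers, 5 of 5 in the table, summed to 226 to 255 FPKM in A/J and 221 to 303 in C3H/HeJ, above the 141 to 219 of C57BL/6J, and to 177 to 253 in DBA/2J, which overlapped it. Choroid plexus markers ran from 26.1 to 1420 FPKM within C57BL/6J alone. The part of these markers in the strain differences was not tested.

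In the BXD strains Alad and Hdhd3 lay near either parental level. A strain was placed with the parent to which its mean log2 value was nearer, as a description without a test. Of 43 strains, 22 were nearer DBA/2J and 21 nearer C57BL/6J for Alad, and the same strains for Hdhd3. The Alad means of the lower 21 had a median of 14.0 FPKM, from 12.4 in BXD-14/TyJ to 31.8 in BXD-12/TyJ, and those of the upper 22 a median of 38.5, from 31.9 in BXD68 to 42.8 in BXD51. The 3 mice of BXD-12/TyJ gave 13.2, 68.1 and 14.0 FPKM, with 1 above the midpoint of the parents. With means in FPKM, which the 68.1 of replicate 2 raises, BXD-12/TyJ moved to the DBA/2J side for Alad. The next lower strain, BXD-19/TyJ, had a mean of 16.8 ± 2.02 FPKM (SD, n = 3) and its highest mouse at 18.55, while the lowest mouse of the upper group was one of BXD68 at 30.0.

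Hdhd3 in the BXD strains had a median strain mean of 2.73 FPKM below, from 2.13 in BXD87 to 4.47 in BXD-12/TyJ, and of 9.07 above, from 6.94 in BXD68 to 10.4 in BXD56. BXD68 was lowest of the upper group for both genes. In BXD-16/TyJ the highest of 3 mice reached 5.07 FPKM, above the midpoint of the parents at 4.61, while its Alad values of 14.4 to 17.4 stayed low. In BXD56, replicate 2 had the highest Hdhd3 of all mice at 13.8 FPKM, against 8.95 and 8.52 in its strain mates. This library, which stood apart at other genes too, raised the strain mean of 10.4. Its Alad of 42.3 lay between those of its strain mates at 40.9 and 44.2. Strain differences within BXD passed for Alad (F = 30.6, adjusted p = 4.1e-61, limma) and for Hdhd3 (F = 26.2, adjusted p = 5.5e-56, limma), in a test that called 64% of all genes.

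The lower BXD strains for both genes were BXD-5/TyJ, BXD-6/TyJ, BXD-9/TyJ, BXD-11/TyJ, BXD-12/TyJ, BXD-14/TyJ, BXD-16/TyJ, BXD-19/TyJ, BXD-20/TyJ, BXD-21/TyJ, BXD-32/TyJ, BXD-34/TyJ, BXD-38/TyJ, BXD-39/TyJ, BXD-40/TyJ, BXD48, BXD55, BXD64, BXD79, BXD86 and BXD87. The upper ones were BXD-15/TyJ, BXD-24/TyJ, BXD-36/TyJ, BXD43, BXD44, BXD45, BXD49, BXD50, BXD51, BXD56, BXD60, BXD61, BXD62, BXD66, BXD68, BXD70, BXD71, BXD73, BXD74, BXD75, BXD84 and BXD85. The shares differed by series of the strain name. Of the 18 strains with TyJ names 3 were nearer DBA/2J, and of the 25 strains numbered from BXD43 on 19 were. Over strains, the mean log2(FPKM + 1) of the later series was 4.94 ± 0.62 against 4.2 ± 0.56 (SD) in the TyJ series for Alad, a difference of 0.74 (2-sided permutation test, adjusted p = 0.00064), and 2.95 ± 0.67 against 2.15 ± 0.56 for Hdhd3, a difference of 0.79 (adjusted p = 0.00064). Without BXD-12/TyJ the differences were 0.76 and 0.8. The comparison was chosen after the values had been seen. It was run for Alad and Hdhd3 alone, so no share of all genes can be set beside it. Both genes placed every BXD strain on the same side, so their results are not independent.

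The AXB and BXA strains divided without any strain in between. For both genes 8 of 18 were nearer A/J and 10 nearer C57BL/6J. The lower Alad means had a median of 14.2 FPKM, from 12.8 ± 0.335 in BXA-14/PgnJ to 16.4 ± 2.93 in AXB-18/PgnJ, and the upper a median of 38.2, from 35.7 ± 1.61 in AXB-8/PgnJ (n = 2) to 41.6 ± 0.719 in AXB-5/PgnJ (SD, n = 3 otherwise). The highest mouse of the lower strains was at 19.8 FPKM and the lowest of the upper at 33.3. Hdhd3 means had a median of 2.73 FPKM below, from 2.07 to 3.32, and of 8.56 above, from 7.87 to 9.35. The upper strains were AXB-2/PgnJ, AXB-5/PgnJ, AXB-8/PgnJ, AXB-13/PgnJ, BXA-2/PgnJ, BXA-4/PgnJ, BXA-7/PgnJ and BXA-12/PgnJ, which is 4 of the 10 AXB and 4 of the 8 BXA strains. The lower AXB-18/PgnJ, AXB-19/PgnJ and AXB-20/PgnJ share the number 19 in their sample titles, where they are told apart by letters, and may not be independent strains. Strain differences passed for Alad (F = 28.6, adjusted p = 1.8e-40, limma) and Hdhd3 (F = 22.5, adjusted p = 3.8e-34, limma), where 22.1% of genes did.

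Of the 6 BXH strains, 4 were nearer C3H/HeJ and 2 nearer C57BL/6J. BXHA1 gave 11.4 and 13.2 FPKM of Alad and BXH-19/TyJ 12.05 and 13.51. The 4 upper strains BXHB2, BXH-6/TyJ, BXH-9/TyJ and BXH-4/TyJ had means of 38.7, 38.7, 40.8 and 40.9 FPKM, with no mouse under 33.4. For Hdhd3 the lower strains were at 2.95 and 2.79 FPKM and the upper between 8.86 and 9.43. Both passed (Alad F = 32.9, adjusted p = 1e-21, limma, and Hdhd3 F = 19.1, adjusted p = 2.5e-13), with 18.4% of genes called.

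Of the 7 CXB strains, 4 were nearer BALB/cJ and 3 nearer C57BL/6J. CXB-11/HiAJ, CXBH, CXB-13/HiAJ and CXB-6/ByJ had Alad means of 35.5, 35.9, 36.6 and 41.3 FPKM. CXB-12/HiAJ was low throughout, with Alad between 12.5 and 16.4 FPKM and Hdhd3 between 2.14 and 2.85. In each of the other lower strains 1 mouse lay apart. CXB-3/ByJ gave 13.7, 11.9 and 28.3 FPKM of Alad and 1.43, 2.15 and 5.12 of Hdhd3, the last mouse being between the levels, below the 32.6 and 7.04 FPKM of the lowest mouse of the upper strains. CXB-7/ByJ gave 12.1, 15.4 and 40.1 FPKM of Alad and 2.89, 2.04 and 8.38 of Hdhd3, the last mouse being at the upper level. The odd mouse was the same for both genes in each strain, replicate 3 in both, which are the libraries that stood apart from their strain mates at other genes too. Strain differences passed for Alad (F = 21.9, adjusted p = 2.4e-17, limma) and Hdhd3 (F = 23.2, adjusted p = 2.8e-18, limma), with 16.4% of genes called. Without both of these mice 4 of 7 strains were again nearer BALB/cJ.

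**Figure D2:**
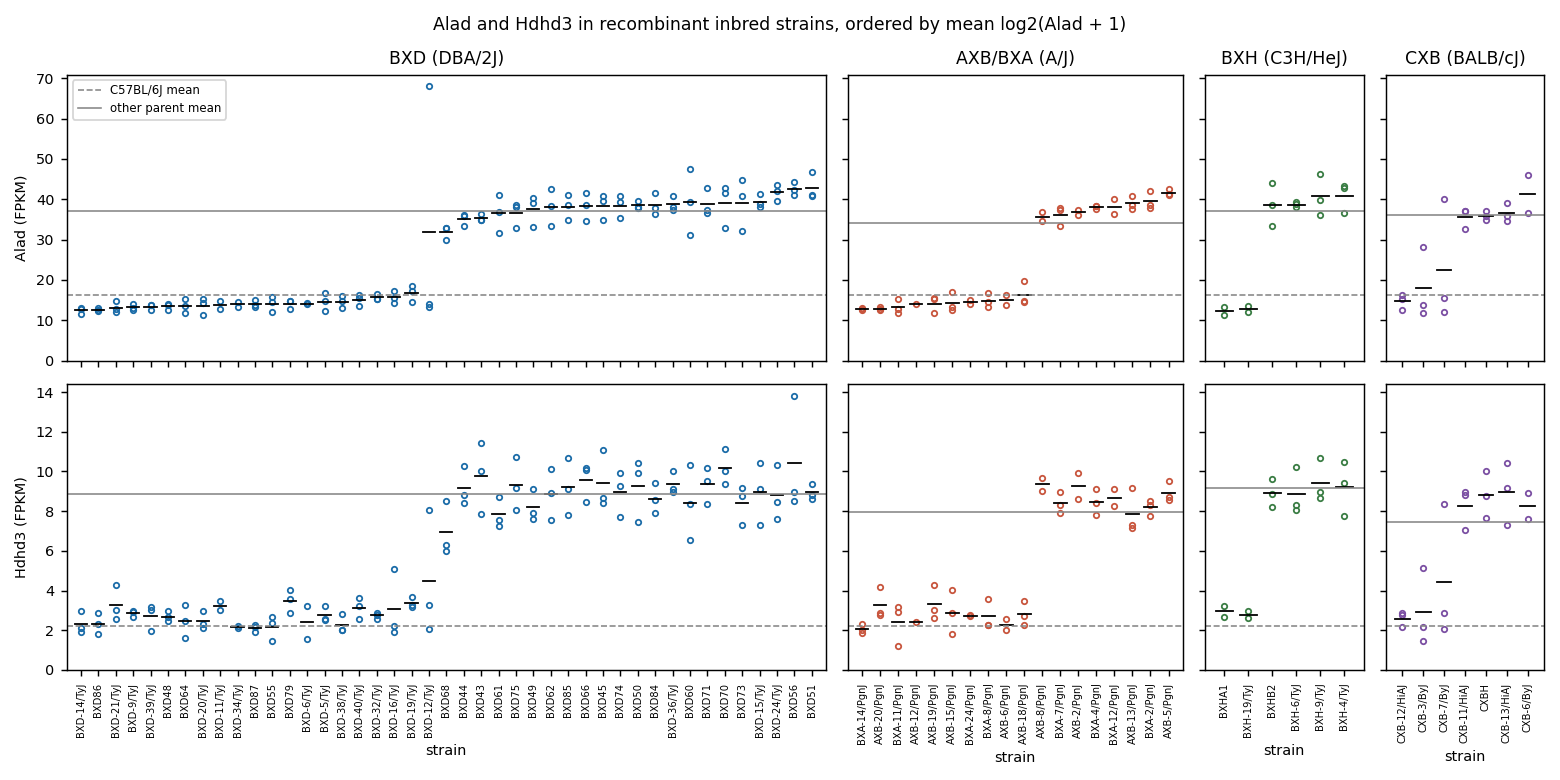
Alad (top row) and Hdhd3 (bottom row) in FPKM in the recombinant inbred strains of 4 sets, ordered within each set by mean log2 Alad. Circles are mice, short bars strain means, and horizontal lines the means of C57BL/6J (dashed) and of the other parent named above each column (solid). Strains sit near either line, and BXD-12/TyJ, CXB-3/ByJ and CXB-7/ByJ hold 1 mouse apart from the other 2.

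In BXD-12/TyJ the mouse with 68.1 FPKM of Alad had 8.04 of Hdhd3, against 2.09 and 3.29 in its strain mates. Its summed FPKM was the largest of all mice, and its blood markers summed to 580 FPKM against 209 and 115. With each library scaled to a sum of 1000000, its Alad was 85.9 against 38.9 and 41.6, and its Hdhd3 10.1 against 6.14 and 9.76. After quantile normalization it gave 40.6 for Alad and 8.43 for Hdhd3, on the FPKM scale. In CXB-7/ByJ replicate 3, where the summed FPKM was ordinary, Alad on that scale was 114 against 35.8 and 44.7. In CXB-3/ByJ replicate 3 it was 61.0 against 41.5 and 36.2.

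Every one of the 74 recombinant strains was on the same side for both genes. The mean of the upper over that of the lower strains was 2.57 for Alad and 3.23 for Hdhd3 in BXD, 2.68 and 3.21 in AXB and BXA, 3.17 and 3.17 in BXH, and 2.03 and 2.59 in CXB. The CXB ratios were lowered by CXB-3/ByJ replicate 3 and CXB-7/ByJ replicate 3, at 28.3 and 40.1 FPKM of Alad among the lower strains. BXD-12/TyJ replicate 2, at 68.1 FPKM, likewise entered the lower BXD mean. Because strain means lay in separate groups, a correlation of Alad with Hdhd3 over a whole set would restate the grouping, and none is given. Within groups of 6 or more strains, Pearson's r was 0.507 (rho = 0.185) over the 22 upper and 0.584 (rho = 0.321) over the 21 lower BXD strains, and -0.357 (rho = -0.429) over the 8 upper and 0.129 (rho = 0.164) over the 10 lower AXB and BXA strains. The deviations of mice from their strain mean gave r = 0.552 over 278 mice, and r = 0.26 over 269 mice without BXD-12/TyJ, CXB-3/ByJ and CXB-7/ByJ. These points share libraries and their scaling, and the values are given as a description.

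**Figure D3:**
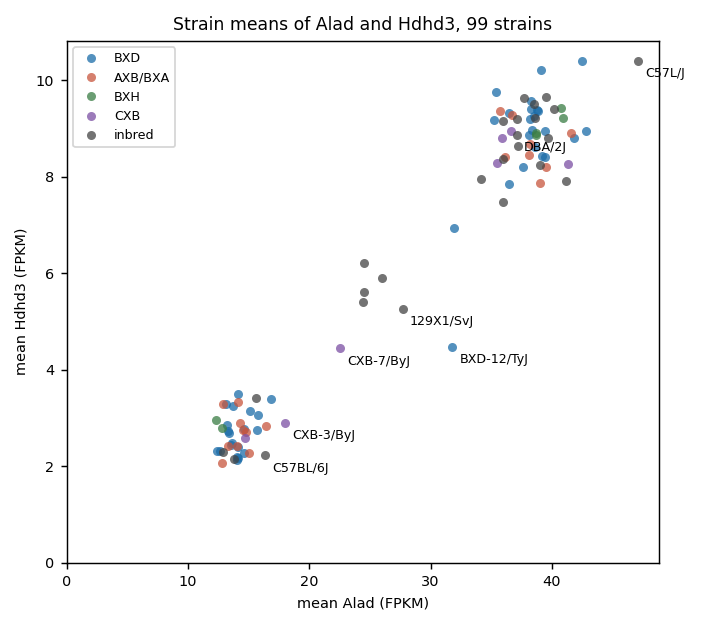
Mean Hdhd3 against mean Alad, both in FPKM, with 1 point for each of 99 strains coloured by set. Points gather near 14 and 38 FPKM of Alad, with 5 classical inbred strains between, and BXD-12/TyJ, CXB-3/ByJ and CXB-7/ByJ off these groups.

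The same transcripts carried Alad in low and high strains. TCONS_00248703, with 12 exons, 1206 bases and a complete coding sequence, made up 83.0% ± 3.62 (SD over all mice) of Alad FPKM. It gave 13.3, 13.5 and 14.7 FPKM in C57BL/6J and 27.9, 32.0 and 32.2 in DBA/2J. Its log2(FPKM + 1) difference was 1.1 ± 0.2 for DBA/2J (adjusted p = 2.4e-05, limma over all transcripts), 0.92 ± 0.2 for A/J, 1.06 ± 0.2 for C3H/HeJ and 0.98 ± 0.2 for BALB/cJ. Its share was 84.9% ± 2.51 in C57BL/6J and 82.8% ± 0.819 in DBA/2J, and 82.5% and 83.1% on average in the lower and upper BXD strains.

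TCONS_00248701, with 11 exons and no coding sequence, gave 0.587 ± 0.3 FPKM in C57BL/6J and 2.97 ± 0.485 in DBA/2J (SD, n = 3 each), with no overlap, a difference of 1.33 ± 0.23 on the log2 scale (adjusted p = 7.7e-06, limma). TCONS_00248700 starts at 62520642, upstream of the other Alad transcripts and of the additional RefSeq start site at 62520063. It ends in a long last exon of 4771 bases. It gave 0.758 ± 0.395 FPKM in C57BL/6J and 2.94 ± 0.518 in DBA/2J (SD, n = 3 each), a difference of 1.18 ± 0.23 (adjusted p = 0.00014, limma). It was the only transcript in the table from its assembled start site, which carried 6.56% of Alad FPKM against 93.4% from the main site. TCONS_00248699, which has the long last exon too, was below 1 FPKM on average and differed by -0.04 ± 0.38 between DBA/2J and C57BL/6J (adjusted p = 0.99, limma). In all, 3 of 4 Alad transcripts were called higher in DBA/2J, A/J and BALB/cJ and 2 of 4 in C3H/HeJ, where the contrasts called 0.996%, 0.772%, 0.796% and 0.923% of all transcripts higher. TCONS_00248700 missed in C3H/HeJ with adjusted p = 0.064 (limma).

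Both Hdhd3 transcripts in the table were higher in DBA/2J than in C57BL/6J. TCONS_00248697, the annotated transcript of 2 exons and 1205 bases, gave 1.83, 2.17 and 2.50 FPKM in C57BL/6J and 5.99, 7.78 and 8.17 in DBA/2J, a log2(FPKM + 1) difference of 1.39 ± 0.21 (adjusted p = 1.6e-07, limma). It rose in the other parents as well, by 1.21 ± 0.21 in A/J, 1.4 ± 0.21 in C3H/HeJ and 1.13 ± 0.21 in BALB/cJ. TCONS_00248694 is an unannotated isoform with the same start site. Its last exon runs on to 62494737 and is 5357 bases long in place of 1086, and its first exon is 100 bases long in place of 119. In C57BL/6J its 3 mice were at 0.0926, 0.0673 and listed at 0 FPKM, and in DBA/2J at 1.43, 1.39 and 1.80. The difference was 1.27 ± 0.24 for DBA/2J (adjusted p = 7e-05, limma), 1.28 ± 0.24 for A/J (adjusted p = 5.6e-05) and 1.41 ± 0.24 for C3H/HeJ (adjusted p = 5.3e-06). In BALB/cJ, at 0.883, 0.00103 and 0.798 FPKM, it was 0.51 ± 0.24 and did not pass (adjusted p = 0.4, limma).

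The long Hdhd3 isoform was 2.61% ± 2.43 of Hdhd3 FPKM in C57BL/6J, 1.77% ± 2.13 in SM/J and 0.597% ± 0.592 in KK/HlJ, against 17.5% ± 2.11 in DBA/2J, 19.9% ± 2.87 in A/J and 22.2% ± 3.3 in C57L/J (SD, n = 3 each). The middle tier went both ways, with 17.4% ± 4.93 in 129X1/SvJ, 13.4% ± 2.27 in NZB/BlNJ, 12.3% ± 6.39 in RIIIS/J and 8.84% ± 7.08 in BUB/BnJ (SD, n = 3 each), and 0.165% ± 0.217 in the 2 mice of PL/J. The average over strains was 16.4% in the upper and 1.25% in the lower BXD strains, 18.2% and 1.78% in AXB and BXA, 16.7% and 0.219% in BXH, and 13.9% and 3.03% in CXB. High Hdhd3 did not always come with it, as NZW/LacJ gave 1.84, 0.0296 and 0.0133 FPKM of the isoform at 8.04 to 9.79 FPKM of the gene, and CE/J 0.0180, 1.62 and 1.96. It was listed at 0 in 47 mice. Shares do not sum to 100%, since transcripts below the filter of the authors count toward the gene. Transcript values divide shared reads by estimate, an exact 0 can be a failed estimate, and unstranded reads from an overlapping antisense transcript would be counted too, so the shares were not tested.

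**Figure D4:**
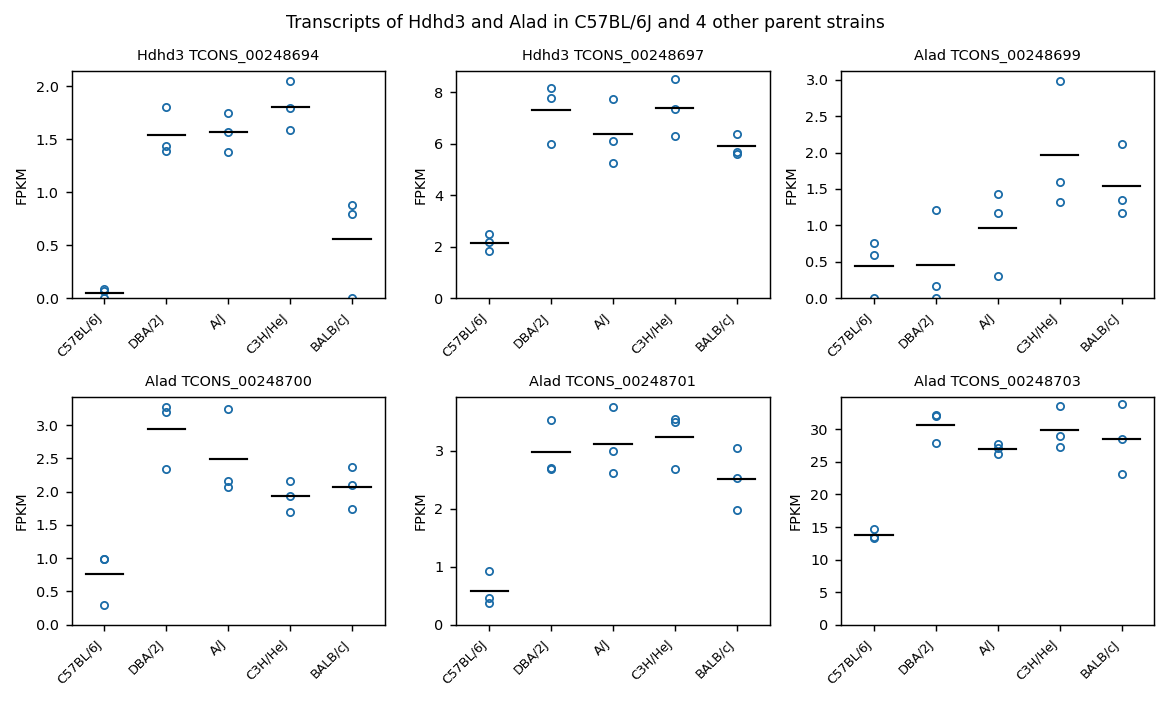
FPKM of the 2 transcripts of Hdhd3 and the 4 of Alad in C57BL/6J, DBA/2J, A/J, C3H/HeJ and BALB/cJ, with 1 circle per mouse, a bar at each mean and a separate axis per transcript. The long Hdhd3 isoform TCONS_00248694 is below 0.1 in C57BL/6J and between 1.38 and 2.05 in DBA/2J, A/J and C3H/HeJ, and TCONS_00248699 overlaps between C57BL/6J and DBA/2J.

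No placed neighbour of Alad and Hdhd3 was called higher in any of the 4 parents. Within 1 Mb on either side the table held 11 other genes with coordinates, of which 0 were called in DBA/2J, C3H/HeJ or BALB/cJ and 1 was called lower in A/J (limma). The contrasts called 6.85% of all genes in DBA/2J, 7.98% in A/J, 7.56% in C3H/HeJ and 6.75% in BALB/cJ. They called 2.85% to 3.87% higher. Among 11 genes, 0 or 1 call is near these shares. Of the 14079 gene rows 1555 had no coordinates here and could not be placed. At an unadjusted p under 0.05 there were 2 in DBA/2J, 0 in C3H/HeJ and 3 in BALB/cJ. The gene called was Akna, a gene named for its AT-hook motif, at 1.27 FPKM in A/J and 1.83 in C57BL/6J (difference -0.32 ± 0.1, adjusted p = 0.027, limma). Pole3, a subunit of DNA polymerase epsilon and the nearest gene on the Alad side, was at 14.4 FPKM in DBA/2J and 12.3 in C57BL/6J, a difference of 0.22 ± 0.11 (adjusted p = 0.25, limma). In A/J the Pole3 difference was 0.03 ± 0.11, in C3H/HeJ 0.21 ± 0.11 and in BALB/cJ 0.14 ± 0.11. Wdr31, a WD-repeat gene and the nearest on the Hdhd3 side, differed by -0.16 ± 0.17 in DBA/2J, 0.15 ± 0.17 in A/J, 0.03 ± 0.17 in C3H/HeJ and -0.09 ± 0.17 in BALB/cJ. The copper transporter genes Slc31a1 and Slc31a2, in the same interval, differed by 0.01 ± 0.15 and 0.09 ± 0.17 in DBA/2J. The median over the 11 genes was -0.08 in DBA/2J, against -0.01 over all genes. Among 99 strains 7 of the 11 passed the F test, where 74.9% of all genes did, and their median strain share of variance was 0.16 against 0.9 for Alad and 0.884 for Hdhd3.

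**Figure D5:**
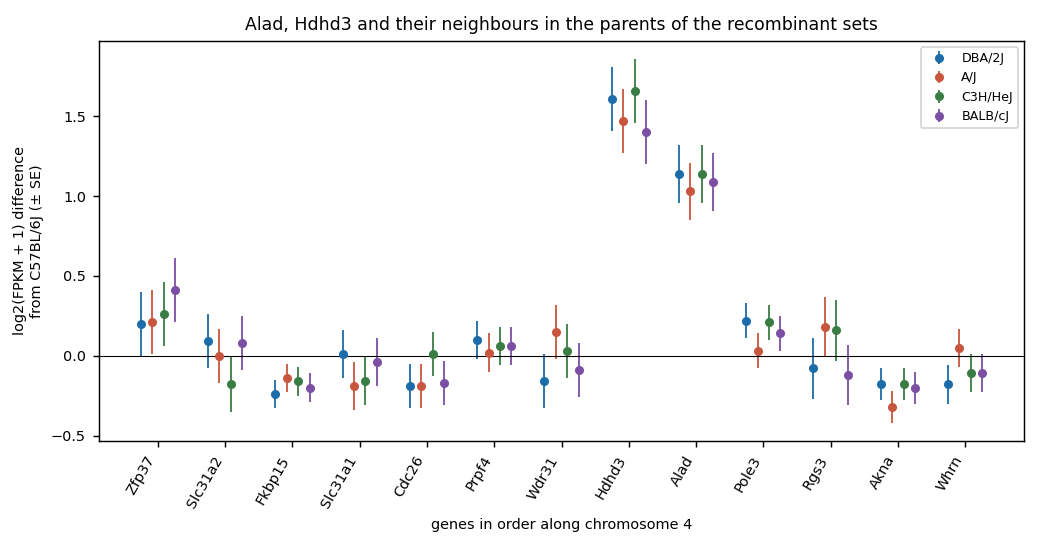
Difference in log2(FPKM + 1) from C57BL/6J, with its SE from limma, for Alad, Hdhd3 and 11 neighbouring genes in order along chromosome 4, in DBA/2J, A/J, C3H/HeJ and BALB/cJ. Hdhd3 lies between 1.4 and 1.66 and Alad between 1.03 and 1.14, while the other genes lie between -0.32 and 0.41.

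By Pearson's r of log2 strain means over 99 strains, Alad and Hdhd3 each ranked first for the other. The strain means of both lie in separate groups, so r rests on the difference between the groups, and it is given below the first rank only to order the genes. Next for Alad came Gng10, a G protein gamma subunit, with r = 0.52, then XLOC_024414 and Ikbkap with r = 0.45 each and Pole3 with r = 0.43. For Hdhd3 they were Gng10 with r = 0.52, XLOC_024414 with r = 0.44, and Gba2, a glucosylceramidase, Ikbkap and Pole3 with r = 0.42 each. Gng10, Gba2, Ikbkap and Pole3 lie on chromosome 4, Gng10 at chr4:59035088-59041903 and Ikbkap at chr4:56749680-56802331, while XLOC_024414 had no coordinates here. The most negative was Zkscan16, a zinc finger gene at chr4:58943575-58962751, with r = -0.63 for Alad and -0.65 for Hdhd3. The others in the first 10 for Alad were XLOC_025988, Gba2, Chpf2, Abcc10 and XLOC_037559, with r from 0.36 to 0.41. Strains of one set share parents, so these points are not independent.

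Other genes of haem synthesis were compared with C57BL/6J in the 4 parents with high Alad. The list held 7 such genes, from Alas1 and Alas2, which encode the first and rate-limiting step, to Fech, which inserts the iron. Of these, 0 were called in any of the 4 parents (limma), where 6.75% to 7.98% of all genes were. For 7 genes, 0 calls is near that share. At an unadjusted p under 0.05 there was 1 each in DBA/2J, A/J and C3H/HeJ and 0 in BALB/cJ. Uros, which acts later in the pathway, was at 12.5 FPKM in DBA/2J and 11.1 in C57BL/6J, a difference of 0.16 ± 0.12, and Urod at 28.7 and 26.2, a difference of 0.15 ± 0.18. Alas2, the form of red cell precursors, ran from 1.24 FPKM in A/J to 3.92 in C3H/HeJ, against 2.21 in C57BL/6J, and its C3H/HeJ difference of 0.66 ± 0.28 did not pass (adjusted p = 0.16, limma). The median over the 7 genes was -0.06 in DBA/2J, -0.12 in A/J, 0.13 in C3H/HeJ and -0.06 in BALB/cJ. Their median strain share of variance was 0.243, beside the 0.221 of all genes, and 5 of the 7 passed the F test over strains.

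Of 10 genes of haem transport and precursor supply 8 were in the table, and 0 were called in any parent (limma), with 1 in each parent at an unadjusted p under 0.05. The contrasts called 6.75% to 7.98% of all genes at the adjusted threshold, so 0 or 1 call in this short list and the next ones does not stand out. Slc25a38, the mitochondrial glycine carrier that feeds the first step, differed by 0.19 ± 0.11 in DBA/2J, and Abcb6, a porphyrin transporter, by 0.24 ± 0.17. Of 4 genes of haem breakdown, 1 was called lower in A/J, which was Hmox2, the constitutive haem oxygenase, at 29.8 FPKM against 39.5 in C57BL/6J (difference -0.4 ± 0.12, adjusted p = 0.024, limma). At an unadjusted p under 0.05 there were 3 of the 4 in A/J, 2 in BALB/cJ and 0 in DBA/2J and C3H/HeJ. The share of all genes at that threshold is not given here. Hmox1, the inducible form, differed by 0.07 ± 0.15 in DBA/2J. Among 14 names of haloacid dehalogenase-like hydrolases 9 were in the table, and 1 was called lower in DBA/2J and in C3H/HeJ. This was Hdhd2, whose assembled locus also carries Ier3ip1, at 61.4 FPKM in DBA/2J against 79.1 in C57BL/6J (difference -0.36 ± 0.09, adjusted p = 0.0043, limma). At an unadjusted p under 0.05 there were 2 of the 9 in DBA/2J and in C3H/HeJ, and 1 in A/J and in BALB/cJ. Psph, phosphoserine phosphatase, differed by -0.39 ± 0.16 in DBA/2J and did not pass (adjusted p = 0.14, limma), and Lhpp, which acts on phospholysine and phosphohistidine, by 0.07 ± 0.17.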

How the data were processed

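Unstranded mRNA libraries were made from whole hypothalami, 1 for each of 282 male mice. According to the methods and the processing notes of the submitters, reads were aligned to mm10 with STAR 2.3.1, transcripts were assembled with Cufflinks 2.2.0 and merged with GENCODE M2, and values were quantified with Cuffquant and Cuffnorm 2.2.1. Values in the deposited table are FPKM, which the authors scaled between mice with Cuffnorm, for genes, transcripts, start sites and coding sequences. As the values show, every feature it keeps exceeds 0 FPKM in 100 mice or more and 1 FPKM in 50 mice or more, so genes of lower expression were not tested. FPKM were not whole multiples of a read, and depth is unknown. No unused columns of mouse values remained. The deposited assembly gives exon coordinates.

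Mice were grouped by the strain in their labels, which leaves out mouse OB-627, whose labels name 2 strains. Replicates are separate mice, numbered within strains by order of listing. CXB-6/ByJ replicates 2 and 3, whose values differ by a constant factor, were averaged and counted as 1 replicate. The values were transformed as log2(FPKM + 1) and fitted with limma 3.58.1 in R 4.3.3, with 280 libraries and 99 strains in 1 model and no covariate, so strains with 1 or 2 mice borrowed the residual spread of the others. Moderated F tests were run over all strains and within sets, and contrasts between strains. Benjamini-Hochberg adjustment of p values covered all gene rows or all transcript rows, at a threshold of 0.05. A recombinant strain was assigned to the parent with the nearer mean log2 value. The contrast of DBA/2J with C57BL/6J was tested on simulated data of 14079 genes with 200 changed by 1 on the log2 scale. Of the changed genes 93% were recovered, with 6.53% false among the genes called. The F test over all strains recovered 63% on the same data. Python 3.11.15 (pandas 2.3.3, numpy 2.4.6, scipy 1.17.1 and matplotlib 3.10.9) served for the remaining values and figures.

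The named genes were every row of Alad and Hdhd3, every gene within 1 Mb of them, lists of haem and haloacid dehalogenase genes, and the 10 genes with the most similar strain means. One gene of the haem synthesis list is not reported here and was left out of its counts. The members and the lists were chosen with earlier results of these data known. Alternatives were pseudocounts of 0.1 and 0.01, a filter at a mean FPKM of 1, quantile normalization, a blood marker covariate, another variance prior, mice left out and, chosen after seeing the data, scaling to an equal sum, CXB-6/ByJ replicates 2 and 3 as separate mice, and leaving out the 3 mice apart from their strain mates. Gene names came from the deposited assembly, and promoters from RefSeq on GRCm38.p6.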

Additional observations from a re-analysis of the deposited data

How the results depend on the processing

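Of 427 values recomputed under the alternatives, 426 kept their direction and their side of the threshold or stayed within 1.5 times. The exception was the number of genes that differed among strains, which was 10547 and ranged from 6421 to 11395 with mice left out, the lower end with replicate 2 left out of every strain, where fewer mice were tested, and the upper end without BXD-12/TyJ replicate 2. Leaving out that mouse raised the F values of Alad by over 1.5 times, through a smaller residual spread. The number of inbred strains called above C57BL/6J for Alad, 20 of 24, ranged from 15 to 21, and the calls lost were those of BUB/BnJ, NZB/BlNJ, RIIIS/J and 129X1/SvJ, while I/LnJ with its 1 mouse was not tested without replicate 1. Over 20 alternatives the log2 difference of DBA/2J from C57BL/6J ranged from 1.08 to 1.2 for Alad and from 1.53 to 1.99 for Hdhd3, with adjusted p up to 0.00057 and 1.1e-06 (limma). For A/J the ranges were 0.96 to 1.12 and 1.29 to 1.83, for C3H/HeJ 0.93 to 1.2 and 1.53 to 2.05, and for BALB/cJ 0.98 to 1.2 and 1.3 to 1.75. Counting CXB-6/ByJ replicates 2 and 3 as separate mice changed none of these calls. Only BXD-12/TyJ and CXB-7/ByJ changed side. BXD-12/TyJ moved to the DBA/2J side for Alad with means in FPKM or without replicate 1 or 3, and for Hdhd3 without replicate 1. CXB-7/ByJ moved to the BALB/cJ side without replicate 1, and for Hdhd3 without replicate 2. Alternatives planned for correlations over whole sets were not run, because strain means lay in separate groups. No paired analysis was possible because replicate numbers only follow the order of listing. With no read counts, precision rests on 1 to 3 mice per strain.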

Other observations

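Mouse OB-627, titled as AXB-8 and labelled as AXB-6/PgnJ, was in no strain. It had 40.3 FPKM of Alad and 8.44 FPKM of Hdhd3. The means were 15.0 and 2.27 FPKM in AXB-6/PgnJ and 35.7 and 9.35 FPKM in AXB-8/PgnJ, with 2 mice each.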
